A study of Mus musculus with 6 samples.

Results

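The nuclear-encoded respiratory chain genes were examined in chromatin accessibility maps of mouse skeletal muscle. Members were the protein-coding genes on autosomes whose GENCODE vM1 symbol begins with Nduf, Uqcr, Cox4, Cox5, Cox6, Cox7, Cox8 or Atp5, together with Sdha, Sdhb, Sdhc and Sdhd. The measured units were the accessible intervals of the count table whose midpoint lay within 1 kb of an annotated transcription start of such a gene (mouse build mm9). Of 88 member genes, 77 had at least 1 interval, and they held 165 of the 39768 intervals of the table. The X-linked subunit genes fell outside the selection. Complex I subunits gave 74 intervals, its assembly factors 9, complex II 7, complex III 17, complex IV 19 and complex V 34. Atp5s, Atp5sl, Cox4nb and Cox7a2l, selected by the beginning of their symbols and not counted as subunits, gave 6. Of these intervals, 1 was shared by Cox4i1 and Cox4nb.

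The libraries came from ATAC-seq, in which the Tn5 transposase cuts open chromatin, on 50000 nuclei each. The study asked what loss of the histone variant H2A.Z does in post-mitotic muscle. CTL (3 libraries) and H2A.Z dKO (3 libraries) mice were C57BL/6, 7 weeks old, and both groups carried H2A.Z-1 flox/flox and H2A.Z-2 flox/flox. Only H2A.Z dKO was HSA CRE +, whereas CTL was HSA CRE -. The HSA promoter drives Cre in muscle fibres, so nuclei of endothelial, connective tissue and satellite cells keep both genes. The labels name the tibialis anterior as the source of the nuclei, whereas the study's methods describe a preparation from hind limb muscles, so which muscles contributed is not settled.

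The respiratory chain of the inner mitochondrial membrane passes electrons from NADH (complex I) and succinate (complex II) through ubiquinone, complex III and cytochrome c to oxygen at complex IV, and the proton gradient drives ATP synthesis by complex V. Most subunits are encoded in the nucleus, and many of their promoters are known to carry sites for NRF1, for GABPA and other ETS factors, and for the oestrogen-related receptor ESRRA. H2A.Z is placed in the nucleosomes that flank active transcription starts. Muscle fibres are rich in mitochondria and use tissue-specific forms of some complex IV subunits.

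Totals in the intervals ran from 3520008 to 6117245 counts per library. As a check for duplicate deposits of a library, the 15 pairs of libraries were compared, and none agreed within counting noise (chi-square per interval from 1.45 to 4.8). In the floxed part of H2afz, the gene of H2A.Z-1, 2 intervals had 33 to 79 counts per library. They held 12.4 ± 2.8 CPM, counts relative to the library total, in CTL and 11.3 ± 1.52 CPM in H2A.Z dKO (SD, n = 3 each). The groups overlapped, with no marked drop in H2A.Z dKO in the part that Cre removes. These counts thus did not show the deletion that the genotype labels state, and the reason was not tested. H2A.Z dKO is used here as the label of the group. Of 15 muscle fibre markers, 11 had a promoter interval, among them Acta1, Ckm, Tnnt3 and Ttn, while Mylpf, Myh1, Myh2 and Atp2a1 had none. Macrophage (0 of 8) and red blood cell markers (0 of 4) had none, and 5 of 8 endothelial, 4 of 7 fibroblast and 1 of 5 satellite cell markers had at least 1. In such bulk samples, fewer nuclei of a type and less accessibility per nucleus cannot be told apart.

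Promoters are shown for the complex IV subunits that exist in a widely expressed and a heart and skeletal muscle form, to set both forms side by side. Sdha is added for its repeated NRF1 letters and Ndufv3 because its interval gave the smallest p. Each sequence runs from 250 bases before to 50 bases after an annotated start in mm9, 5′ to 3′ on the gene's strand. Capitals mark the letters of the motifs that were searched on both strands, namely those of NRF1, ETS factors, YY1, SP1, CRE, ESRRA, the TATA box and the muscle E-box. The letters are spelled out with their shares below, and matches of different motifs may overlap. Windows on the plus strand are Cox7a1 (chr7:30968940-30969239) and Ndufv3 (chr17:31656810-31657109). Those on the minus strand are Cox6a1 (chr5:115798941-115799240), Cox6a2 (chr7:135349831-135350130), Cox7a2 (chr9:79607611-79607910), Cox8a (chr19:7292057-7292356), Cox8b (chr7:148086296-148086595) and Sdha (chr13:74487679-74487978).
Cox6a1: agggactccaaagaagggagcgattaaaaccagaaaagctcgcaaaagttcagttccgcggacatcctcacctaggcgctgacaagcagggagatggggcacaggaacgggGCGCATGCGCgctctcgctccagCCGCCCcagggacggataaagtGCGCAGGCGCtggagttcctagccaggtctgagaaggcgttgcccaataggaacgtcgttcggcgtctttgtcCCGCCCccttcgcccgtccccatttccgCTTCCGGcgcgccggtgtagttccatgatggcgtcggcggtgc
Cox6a2: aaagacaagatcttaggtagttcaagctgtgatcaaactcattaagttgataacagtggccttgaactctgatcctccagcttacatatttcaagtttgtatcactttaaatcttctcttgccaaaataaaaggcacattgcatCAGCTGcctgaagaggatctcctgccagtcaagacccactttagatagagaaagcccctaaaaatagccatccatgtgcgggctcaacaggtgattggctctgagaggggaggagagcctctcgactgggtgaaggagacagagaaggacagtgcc
Cox7a1: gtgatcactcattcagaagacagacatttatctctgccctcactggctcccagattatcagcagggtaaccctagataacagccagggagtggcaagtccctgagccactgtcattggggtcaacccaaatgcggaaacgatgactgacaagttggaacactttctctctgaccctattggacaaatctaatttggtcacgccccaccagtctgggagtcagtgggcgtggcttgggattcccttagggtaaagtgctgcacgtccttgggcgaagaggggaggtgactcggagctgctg
Cox7a2: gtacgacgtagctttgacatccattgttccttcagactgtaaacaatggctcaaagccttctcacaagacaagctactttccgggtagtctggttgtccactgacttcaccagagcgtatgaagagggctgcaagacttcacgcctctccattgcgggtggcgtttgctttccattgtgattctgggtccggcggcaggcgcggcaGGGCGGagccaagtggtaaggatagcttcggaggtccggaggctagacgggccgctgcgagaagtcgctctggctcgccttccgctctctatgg
Cox8a: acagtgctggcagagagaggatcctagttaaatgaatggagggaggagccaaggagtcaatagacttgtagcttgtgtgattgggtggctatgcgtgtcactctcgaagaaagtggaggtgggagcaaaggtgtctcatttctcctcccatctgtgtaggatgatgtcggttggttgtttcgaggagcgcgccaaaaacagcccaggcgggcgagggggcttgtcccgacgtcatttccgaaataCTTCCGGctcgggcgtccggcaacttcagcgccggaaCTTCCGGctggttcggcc
Cox8b: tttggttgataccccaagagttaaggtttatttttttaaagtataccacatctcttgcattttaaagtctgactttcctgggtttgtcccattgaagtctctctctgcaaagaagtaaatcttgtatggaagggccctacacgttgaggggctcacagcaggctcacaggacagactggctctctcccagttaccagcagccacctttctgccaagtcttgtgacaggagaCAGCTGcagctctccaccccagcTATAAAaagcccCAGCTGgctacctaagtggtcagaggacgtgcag
Sdha: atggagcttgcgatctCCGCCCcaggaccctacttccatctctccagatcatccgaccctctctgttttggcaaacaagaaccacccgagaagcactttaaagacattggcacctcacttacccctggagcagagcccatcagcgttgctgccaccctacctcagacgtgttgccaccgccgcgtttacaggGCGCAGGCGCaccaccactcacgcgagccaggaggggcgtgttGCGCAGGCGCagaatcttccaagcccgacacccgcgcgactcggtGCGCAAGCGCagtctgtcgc
Ndufv3: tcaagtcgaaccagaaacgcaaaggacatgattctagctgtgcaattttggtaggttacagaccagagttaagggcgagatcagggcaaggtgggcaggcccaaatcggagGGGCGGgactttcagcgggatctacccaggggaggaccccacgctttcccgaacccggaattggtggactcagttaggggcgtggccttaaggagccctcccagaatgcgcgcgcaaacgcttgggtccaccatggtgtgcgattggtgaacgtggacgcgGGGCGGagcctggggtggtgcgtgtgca

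The Cox6a1 window held 2 NRF1 matches, beginning 139 and 94 bases before the start, and 1 ETS match after it. The window of Cox6a2, the heart and muscle form, held a single E-box match beginning 106 bases before the start. Cox8a had 2 ETS matches, 1 across the start and 1 after it, whereas Cox8b, the heart and muscle form, had 2 E-box matches, 1 of them beginning 19 bases before the start, and TATAAA. In Cox8b the TATAAA letters (bases 5 to 10, the start being base 1) and the other E-box match (bases 17 to 22) lay after the annotated start. Cox7a1 held none of the letters searched, and Cox7a2 held 1 SP1 match beginning 44 bases before the start. Sdha carried 3 NRF1 matches, the first beginning 58 bases before the start. The observed over expected CpG ratio was 0.13 for Cox6a2, 0.11 for Cox8b and 0.33 for Cox7a1, and 1.03 for Cox6a1, 0.84 for Cox8a and 0.83 for Cox7a2. The muscle forms were thus the CpG-poor member of each of these pairs, beside a median ratio of 0.83 over the 77 members with an interval and 0.78 over the 10980 protein-coding genes with one.

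Over the windows of the 77 member genes with an interval, 14 (18.2%) held the NRF1 consensus with its 1 free base, against 11% of protein-coding genes with an interval and 6.24% of all protein-coding genes. The ESRRA letters AAGGTCA were in 9 (11.7%), against 2.8% and 3.85%. These 9 were Atp5e, Atp5g3, Atp5l, Ndufb2, Ndufb4, Ndufs1, Ndufs5, Sdhd and Uqcrq. For YY1 the letters AAGATGG were in 13% of members (backgrounds 7.56% and 6.93%). For CRE, the cyclic AMP response element, TGACGTCA was in 6.49% (3.61% and 2.35%). The ETS letters CCGGAAG, which GABPA binds, were in 20.8% (18.8% and 11%). TATAAA was in 9.09% of member windows (6.4% and 13.4%). The E-box letters CAGCTG, bound by myogenic factors, were in 15.6% (14.7% and 15.3%). The SP1 letters GGGCGG were in 46.8%, against 66.4% of protein-coding genes with an interval and 44.5% of all. In a wider window, 500 bases before to 100 after the start, NRF1 was in 20.8% of members (backgrounds 12.8% and 7.35%), YY1 in 26% (13.4% and 12.7%), ESRRA in 19.5% (7.38% and 8.88%) and TATAAA in 18.2% (15.8% and 25.7%). The E-box letters were in 20.8% there, below both backgrounds (25.8% and 26.6%). These shares are descriptions of letters and were not tested. Members whose window held NRF1 letters had a median accessibility of 124 RPKM over 38 intervals, beside 141 RPKM over the 127 intervals of the other members. Median log2 fold changes of the 2 sets were 0.02 and -0.00093. For YY1 the median was 0.11 over 24 intervals, 15 of them above 0, beside -0.00093 over the other 141. Medians for the intervals with each of the other motifs lay from -0.03 to 0.04.

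**Figure D1:**
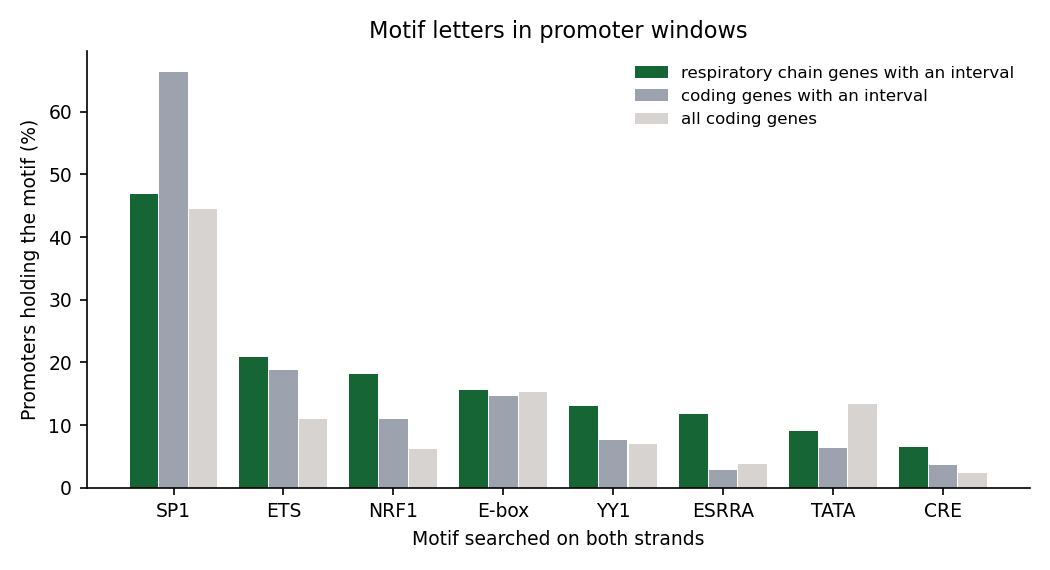
Bars give the share (%) of promoter windows (250 bases before to 50 after the start) that hold each motif's letters on either strand, for the 77 respiratory chain genes with an interval, the 10980 protein-coding genes with an interval and all 22366 protein-coding genes. NRF1 stands at 18.2% and ESRRA at 11.7% in the first set, and SP1 at 46.8% against 66.4% in the second.

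Accessibility is given as RPKM, the counts of an interval relative to its width in kb and to the total of the library. An interval accompanied 77 of 88 member genes (87.5%), beside 49.2% of protein-coding genes, 93.5% of genes named Mrpl or Mrps (mitochondrial ribosome) and 90.5% of those named Rpl or Rps (cytosolic ribosome). The median member interval held 138 ± 3.81 RPKM in CTL and 137 ± 2.06 in H2A.Z dKO (SD over 3 libraries each). Promoter intervals of all protein-coding genes had medians of 133 ± 0.31 and 133 ± 4.18, Mrpl and Mrps genes 127 ± 2.4 and 126 ± 2.07, and Rpl and Rps genes 140 ± 1.38 and 142 ± 9.7. Of the 165 member intervals, 88 lay above the median of protein-coding promoter intervals and 15 in its top 10%. The midpoint lay within 200 bp of the start in 67.9% of member intervals, against 68.1% of the other promoter intervals, and 84 intervals covered the start. By position, 61 midpoints fell in an exon of the member gene, 32 in an intron and 72 outside it.

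The complexes overlapped widely in their levels. Median RPKM over all libraries was 130 for the intervals of complex I, 190 for its assembly factors, 119 for complex II, 152 for complex III, 142 for complex IV and 154 for complex V, beside 133 for protein-coding promoter intervals. The assembly factor median rests on 9 intervals of 4 genes, 5 of them at Ndufaf3. The best intervals of Ndufaf1, Ndufaf2 and Ndufaf4 held 67.2, 141 and 110 RPKM. The narrowest intervals need care, because fragment ends were extended before counting and so a narrow interval also collects ends that lie beside it. Among members, 29 of 165 were narrower than 73 bp, and dividing by the width plus 36 bp lowers their RPKM most.

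**Figure D2:**
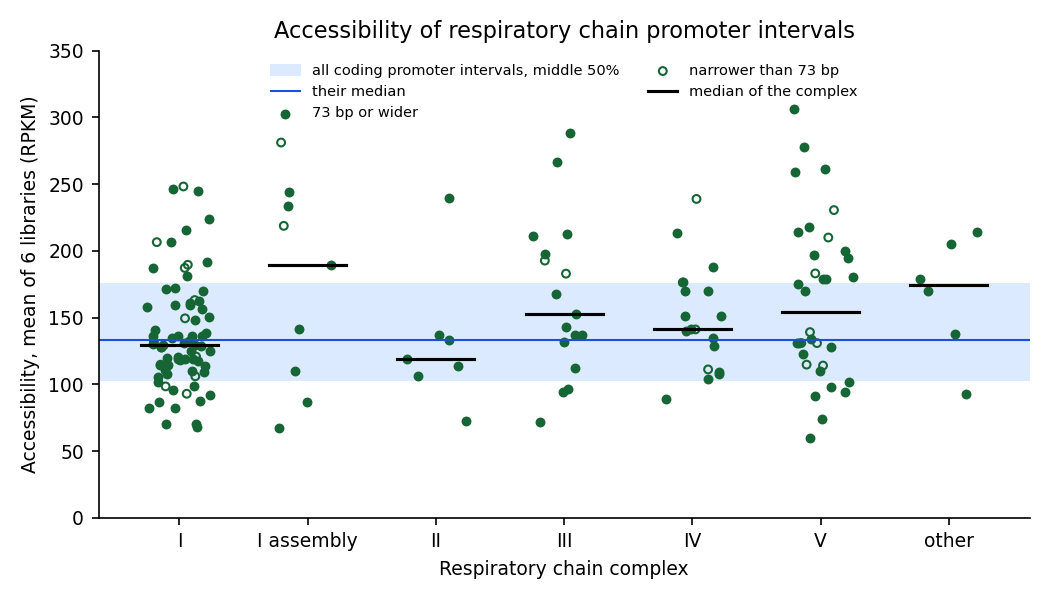
Each point is 1 respiratory chain interval, placed by complex (x axis) and by its mean RPKM over the 6 libraries (y axis), with open points for intervals narrower than 73 bp, black bars for the median of each complex and the blue line and band for the median (133 RPKM) and middle 50% of all protein-coding promoter intervals. The highest point is Atp5g1 in complex V at 307 RPKM.

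In complex I, whose subunits oxidise NADH and reduce ubiquinone, the lowest best interval was that of Ndufa9, an accessory subunit (chr6:126799205-126799282), with 84.9, 98.2 and 70.1 RPKM in CTL, against 95.1, 59.9 and 85.3 RPKM in H2A.Z dKO. Its groups overlapped, and its log2 fold change was -0.07 ± 0.25 (SE).

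Complex II, succinate dehydrogenase, is wholly nuclear-encoded. Sdhb, the iron-sulfur subunit (chr4:140516946-140517353), was its most accessible gene, with 231, 249 and 242 RPKM in CTL, against 227, 237 and 250 RPKM in H2A.Z dKO. Sdhc, a membrane anchor (chr1:173080615-173080865), held 128, 134 and 138 RPKM in CTL, against 137, 134 and 149.8 RPKM in H2A.Z dKO. Sdhd, the other anchor (chr9:50411825-50412280, also within 1 kb of the start of Timm8b), held 127, 133 and 122 RPKM in CTL, against 126, 155 and 135 RPKM in H2A.Z dKO. The groups overlapped for all 3 genes, and every Sdhb library lay above every library of the other 2. Sdha, the flavoprotein that binds succinate (chr13:74487390-74487860, also near the start of Ccdc127), was lowest, with 103, 99.7 and 132 RPKM in CTL, against 130.1, 105 and 112 RPKM in H2A.Z dKO. Its levels overlapped those of Sdhd. The log2 fold changes of the 4 best intervals were -0.02 ± 0.10 (SE) for Sdhb, 0.08 ± 0.15 (SE) for Sdhc, 0.12 ± 0.12 (SE) for Sdhd and 0.07 ± 0.14 (SE) for Sdha.

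In complex III, Uqcr10, a small accessory subunit (chr11:4604578-4604731, 309 bp upstream of the start and shared with Zmat5), held 275, 274 and 299 RPKM in CTL, against 272, 305 and 308 RPKM in H2A.Z dKO. This level exceeded that of 97.5% of protein-coding promoter intervals. Uqcrfs1, the Rieske iron-sulfur protein (chr13:30636959-30637390), had the lowest best interval, with 146, 129 and 127 RPKM in CTL, against 137, 147 and 134 RPKM in H2A.Z dKO. The groups overlapped in both, with log2 fold changes of 0.06 ± 0.13 (SE) and 0.06 ± 0.12 (SE).

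In complex V the c-subunit gene Atp5g1 (chr11:95936844-95937515, 671 bp, the widest member interval) had the highest level of all members. It held 315, 321 and 321 RPKM in CTL, against 270.5, 322 and 290.0 RPKM in H2A.Z dKO, above 98.3% of protein-coding promoter intervals. The second library labelled H2A.Z dKO was the highest of all and the other two of that group were the lowest, so the groups overlapped, and the log2 fold change was -0.12 ± 0.09 (SE). Atp5l, subunit g of the membrane part (chr9:44728741-44728877), was lowest, with 92.6, 77.8 and 111 RPKM in CTL, against 101, 95.3 and 108 RPKM in H2A.Z dKO. Atp5f1, subunit b, was represented only by an interval 11 bp wide (chr3:105761774-105761785, named after its values were seen), too narrow for a firm level.

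The c ring of ATP synthase is encoded by Atp5g1, Atp5g2 and Atp5g3, whose mature proteins are identical. Using intervals of at least 73 bp, Atp5g2 (chr15:102502305-102502428, 888 bp upstream of the start and within 1 kb of that of Mir688) held 121, 142 and 120.1 RPKM in CTL, against 126, 164 and 113 RPKM in H2A.Z dKO. Atp5g3 (chr2:73749246-73749497) held 134, 137 and 122 RPKM in CTL, against 119, 129 and 129 RPKM in H2A.Z dKO. Atp5g1 exceeded both in 6 of 6 libraries, by 1.96 to 2.67 times over Atp5g2 and by 2.26 to 2.62 times over Atp5g3, whereas Atp5g2 and Atp5g3 changed places between libraries. The groups overlapped for all 3, and the log2 fold changes were 0.07 ± 0.20 (SE) for Atp5g2 and -0.07 ± 0.15 (SE) for Atp5g3. By the rule of highest RPKM, Atp5g3 is represented by an interval of 31 bp (chr2:73749695-73749726) with 169, 132 and 156 RPKM in CTL, against 148, 121 and 109 RPKM in H2A.Z dKO, or 64.4 RPKM with 36 bp added. The log2 fold change of that 31 bp interval was -0.27 ± 0.27 (SE).

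Among complex IV genes, Cox6a1 (chr5:115798901-115799234) held 156, 141 and 151 RPKM in CTL, against 109, 148 and 147 RPKM in H2A.Z dKO. Its muscle counterpart Cox6a2 (chr7:135349794-135349977), the lowest best interval of the complex, held 108, 68.5 and 90 RPKM in CTL, against 78.2, 107 and 84.9 RPKM in H2A.Z dKO. Cox6a1 was the more accessible in 6 of 6 libraries, by 1.38 to 2.06 times. Cox7a1, the muscle form (chr7:30968959-30969297), held 151, 146 and 161 RPKM in CTL, against 130.0, 168 and 154 RPKM in H2A.Z dKO. Cox7a2, the widely expressed form (chr9:79607189-79607810), held 135, 124 and 125 RPKM in CTL, against 129, 136 and 123 RPKM in H2A.Z dKO. Their ratio, Cox7a1 over Cox7a2, was 1.01 to 1.28 and fell to 0.962 in 1 library when 36 bp was added to the widths, so their order was not resolved.

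Cox8a (chr19:7291968-7292369) held 229, 231 and 205 RPKM in CTL, against 185, 218 and 213 RPKM in H2A.Z dKO. No interval of the table lay within 1 kb of the start of its muscle form Cox8b, and the nearest midpoint was 8323 bp away. Cox4i1 (chr8:123191892-123192287), the widely expressed form of subunit 4, held 165, 151 and 184 RPKM in CTL, against 192, 152 and 176 RPKM in H2A.Z dKO, in an interval shared with the start of Cox4nb. Its lung form Cox4i2 had no interval within 1 kb. Cox6b1 (chr7:31411259-31411286) had the highest RPKM of complex IV, with 272, 232 and 242 RPKM in CTL, against 145, 277 and 266 RPKM in H2A.Z dKO, in an interval of 27 bp. With 36 bp added it fell from 239 to 102 RPKM, and the widest interval of that gene (chr7:31411052-31411303) held a mean of 109 RPKM. Among complex IV intervals of at least 73 bp, Cox8a was then the highest. The groups overlapped for each of these complex IV intervals. The log2 fold changes were -0.16 ± 0.14 (SE) for Cox6a1, -0.00093 ± 0.20 (SE) for Cox6a2, -0.02 ± 0.13 (SE) for Cox7a1, 0.0075 ± 0.11 (SE) for Cox7a2, -0.12 ± 0.11 (SE) for Cox8a, 0.06 ± 0.13 (SE) for Cox4i1 and -0.16 ± 0.26 (SE) for Cox6b1.

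**Figure D3:**
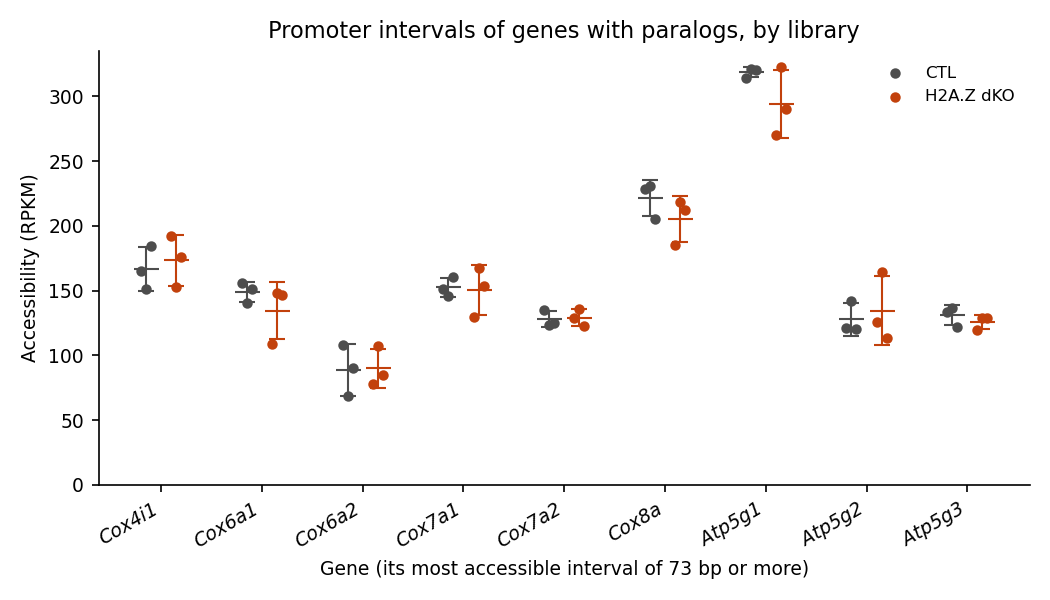
Points are libraries (CTL grey, H2A.Z dKO orange) and bars the mean ± SD of 3, for the most accessible interval of at least 73 bp of each gene, in RPKM on the y axis. Atp5g1 lies above Atp5g2 and Atp5g3, and Cox6a1 above Cox6a2, in every library, while the groups overlap at each gene.

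No interval was found for 11 member genes, that is, none whose midpoint lay within 1 kb of a start. Cox6b2 and Cox8c, testis forms, Cox7b2, Cox4i2, Cox8b, Ndufa4l2 and the gene annotated as Atp5l-ps1 were among them. The other 4 encode standing subunits of complex I, namely the core iron-sulfur subunits Ndufs7 and Ndufs8 and the accessory subunits Ndufa6 and Ndufb5. The nearest midpoint lay 3265 bp from a start of Ndufs7, 5604 bp from Ndufs8, 7226 bp from Ndufa6 and 28028 bp from Ndufb5. The table used here holds fewer intervals than the study's methods state were counted, which bears on these genes and on the shares of genes with an interval, and an interval missing from it does not show that a promoter is closed.

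Many member promoters lay beside another gene. Of 165 member intervals, 56 (33.9%) lay within 1 kb of the starts of at least 2 protein-coding genes, against 12.3% of the other promoter intervals. In 55 of them, at 27 member genes, the neighbour was not itself a member. Their values cannot be assigned to the member alone. Atp5j, coupling factor 6 (chr16:84835011-84835394), shared its interval with Gabpa, the ETS factor named above, and held 286, 281 and 266 RPKM in CTL, against 305, 268 and 260.0 RPKM in H2A.Z dKO. Uqcrh, the hinge protein of complex III (chr4:115747566-115747781, shared with Lrrc41), held 279, 276 and 250 RPKM in CTL, against 259.7, 252 and 283 RPKM in H2A.Z dKO. Atp5b, the catalytic beta subunit (chr10:127520003-127520433, beside SNORD59), held 263, 243 and 297 RPKM in CTL, against 191, 302 and 269.5 RPKM in H2A.Z dKO. The groups overlapped in all 3, and the log2 fold changes were 0.002 ± 0.11 (SE), -0.02 ± 0.12 (SE) and -0.08 ± 0.13 (SE).

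The comparison of H2A.Z dKO with CTL asks whether the labelled genotype went with another accessibility at these promoters. The counts in the floxed part of H2afz did not show the deletion, so its absence from these libraries also bears on the results below. No member interval passed an adjusted p of 0.05 in the quasi-likelihood test of edgeR (Benjamini-Hochberg over all 39768 intervals), where the background of called intervals was 0%, and the lowest adjusted p among members was 0.972. Limma voom and DESeq2 also called 0 members. At an unadjusted p under 0.05 the test named 2 member intervals, both lower in H2A.Z dKO and none higher, which is 1.21% of members. The background was 4.95% of all intervals (2.64% higher and 2.31% lower) and 3.76% of the other protein-coding promoter intervals (2.03% higher and 1.73% lower). Limma voom and DESeq2 each named the same number, 2, where their own backgrounds were 5.02 and 1.9% of all intervals.

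Across members, the median log2 fold change (H2A.Z dKO over CTL) was 0.0033, with 85 values above 0 and 80 below, beside 0.011 for protein-coding promoter intervals and 0.012 for all intervals. The median absolute log2 fold change was 0.12, as for the other promoter intervals (0.12) and under the 0.14 of all intervals. Values lay within 0.3 of 0 on the log2 scale for 154 of 165 members. The 11 beyond it had a median width of 57 bp and a median of 32.5 counts per library, against 189 bp and 134 counts for the rest. The data bound the difference in the bulk nuclei for most members: 162 of 165 had a 95% confidence interval inside a 2-fold change in either direction, and 109 inside 1.5-fold. Nuclei from outside the fibres keep both genes and are part of these libraries, so this is not a bound for fibre nuclei alone. Together the member intervals took 0.534, 0.529 and 0.539% of all counts in CTL, against 0.513, 0.541 and 0.526% in H2A.Z dKO, and the groups overlapped.

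**Figure D4:**
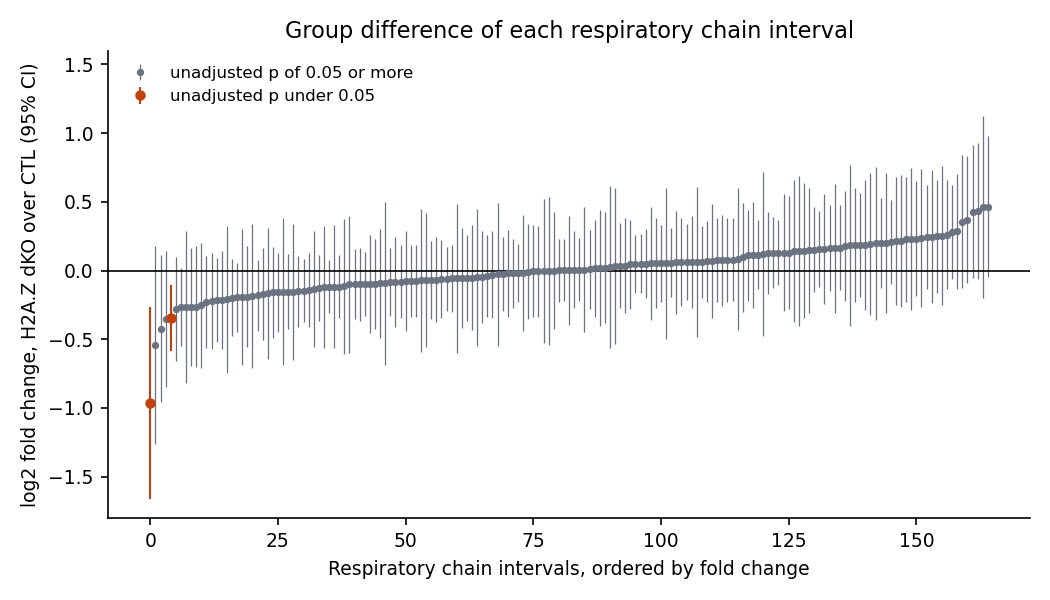
Each point is the log2 fold change (H2A.Z dKO over CTL, y axis) of 1 of the 165 respiratory chain intervals with its 95% confidence interval, ordered by size along the x axis. The values run from -0.97 to 0.47, and orange marks the 2 intervals with an unadjusted p under 0.05, both below 0.

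By complex, 41 of 74 intervals of complex I were above 0 (median 0.01), 4 of 9 of its assembly factors (median -0.06), 4 of 7 of complex II (median 0.07), 12 of 17 of complex III (median 0.06), 6 of 19 of complex IV (median -0.07) and 16 of 34 of complex V (median -0.03). The 2 intervals named at an unadjusted p under 0.05 were both of complex I. Groups did not overlap in 24 members (14.5%, against a background of 10.6% of all intervals and 10.7% of the other promoter intervals). H2A.Z dKO was the higher in 11 (backgrounds 5.26% and 5.12%) and the lower in 13 (5.3% and 5.6%). Of the 11 higher ones, 3 were intervals of Ndufb8, an accessory subunit of complex I, named after its values were seen, and neighbouring intervals of 1 gene are not independent. In the peak lists 93 member intervals (56.4%) came from both groups, 40 (24.2%) from the H2A.Z dKO list alone and 32 (19.4%) from the CTL list alone, beside 52.9, 31.2 and 15.9% of protein-coding promoter intervals. Their median log2 fold changes were -0.01, 0.12 and -0.06 in that order, where the signs for the lists of a single group follow from how those intervals were chosen.

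Ndufv3, an accessory subunit of the NADH-oxidising part of complex I (chr17:31656834-31657173, 339 bp over the start, shared with Wdr4), held 243, 306 and 273 RPKM in CTL, against 205, 234 and 207 RPKM in H2A.Z dKO. All H2A.Z dKO libraries were below all CTL libraries. The log2 fold change was -0.35 ± 0.12 (SE), with a 95% interval of -0.58 to -0.11 and an unadjusted p of 0.00679, and the adjusted p of edgeR's quasi-likelihood test was 0.972. Without the second CTL library the log2 fold change was -0.26 and the unadjusted p of that test 0.0705. This is the promoter printed above with 2 SP1 matches.

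Ndufa3, an accessory subunit of the membrane arm (chr7:3568670-3568690, 20 bp wide and 295 bp upstream of the start, shared with Oscar), held 204, 184 and 256 RPKM in CTL, against 51.1, 165 and 119 RPKM in H2A.Z dKO. The groups did not overlap, and the first library labelled H2A.Z dKO was by far the lowest. The log2 fold change was -0.97 ± 0.34 (SE), the unadjusted p 0.00888, with an adjusted p of 0.972 in edgeR's test. Without that library the log2 fold change was -0.60 and the unadjusted p 0.0736, and over all left-out libraries the log2 fold change ran from -1.32 to -0.60. The 275 bp interval over the same promoter (chr7:3568836-3569111) gave -0.05 ± 0.15 (SE).

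Ndufaf4, a complex I assembly factor (chr4:24824986-24825357), held 125, 114 and 123 RPKM in CTL, against 102, 96.6 and 101 RPKM in H2A.Z dKO. Its groups did not overlap, with a log2 fold change of -0.27 ± 0.14 (SE) and an unadjusted p of 0.0625, or -0.31 and 0.0254 without the first H2A.Z dKO library. On the higher side, Ndufs6, a zinc-binding subunit of complex I (chr13:73465672-73465729, 57 bp), held 88.9, 106 and 94.7 RPKM in CTL, against 143, 154 and 101 RPKM in H2A.Z dKO. The third H2A.Z dKO library lay among the CTL values, and the log2 fold change was 0.47 ± 0.25 (SE) (unadjusted p = 0.0728), or 0.62 (unadjusted p = 0.0269) without that library. The wider interval of Ndufs6 (chr13:73465828-73466073) gave 0.06 ± 0.16 (SE).

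Atp5k, subunit e of ATP synthase (chr5:108863167-108863222, 55 bp), held 95.1, 94.3 and 103 RPKM in CTL, against 127, 124 and 141 RPKM in H2A.Z dKO, with no overlap and a log2 fold change of 0.43 ± 0.23 (SE) (unadjusted p = 0.0806). This was 1 of 4 Atp5k intervals and not the most accessible, and the most accessible of at least 73 bp held a mean of 131 RPKM. The value of this 1 interval does not stand for the whole promoter. Uqcrc2, a core protein of complex III (chr7:127778393-127778476, 83 bp), held 92.6, 62.5 and 85.6 RPKM in CTL, against 123, 106 and 96 RPKM in H2A.Z dKO. Its groups did not overlap either, with a log2 fold change of 0.43 ± 0.24 (SE) (unadjusted p = 0.0831), or 0.28 without the second CTL library, and the wider Uqcrc2 interval (chr7:127778594-127778805) gave 0.15 ± 0.13 (SE). The adjusted p was 0.972 in edgeR's quasi-likelihood test for the Ndufaf4 interval, the narrower Ndufs6 and Uqcrc2 intervals and the 55 bp Atp5k interval.

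**Figure D5:**
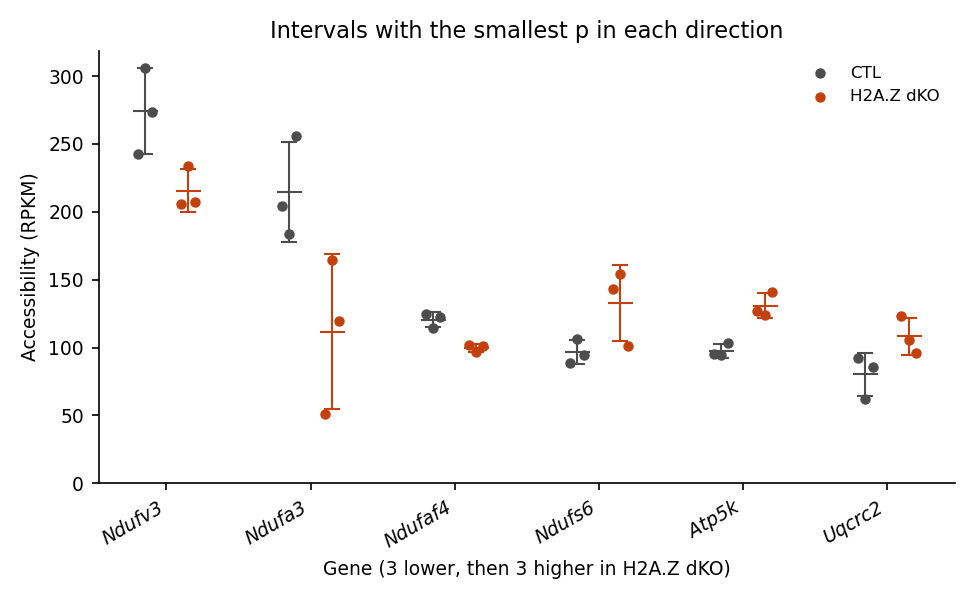
Points are libraries (CTL grey, H2A.Z dKO orange) and bars the mean ± SD of 3, in RPKM on the y axis, for the 3 intervals with the smallest p on the lower side (Ndufv3, Ndufa3, Ndufaf4) and on the higher side (Ndufs6, Atp5k, Uqcrc2). At Ndufa3 the first H2A.Z dKO library lies at 51.1 RPKM, far below the others.

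Genes that work with the chain were examined in the same fit, where 4.95% of all intervals had an unadjusted p under 0.05 (2.64% higher and 2.31% lower). Of 26 assembly and cofactor genes in the annotation, such as Sco1, 23 had an interval, and none of their 50 intervals had an unadjusted p under 0.05 (median log2 fold change 0.01). Of 14 electron carrier genes (cytochrome c, the electron transfer flavoprotein and ubiquinone synthesis), 11 had one, and 1 of 23 intervals was lower at that level, the Pdss2 interval (log2 fold change -0.31 ± 0.12, SE). Cycs, Cyct and Etfdh had none. Of the 12 regulators, 11 had an interval, and 1 of 22 intervals was higher and 1 lower at that level. The higher one was a second interval of the coactivator gene Ppargc1a (chr5:51944214-51944278, 64 bp), named after its values were seen, with 59.1 ± 19.4 RPKM in CTL and 94.5 ± 8.46 in H2A.Z dKO (SD, n = 3 each) and a log2 fold change of 0.64 ± 0.27 (SE). The lower one was at Tfam, which packages mitochondrial DNA, with 167 ± 5.85 RPKM in CTL and 139 ± 18.1 in H2A.Z dKO (SD, n = 3 each), a log2 fold change of -0.27 ± 0.12 (SE) and an unadjusted p of 0.0421 in edgeR's quasi-likelihood test. The best interval of Ppargc1a gave -0.12 ± 0.23 (SE), opposite in sign to its second interval above. The best interval of Esrra gave -0.10, that of Nrf1 -0.08 and the one shared by Gabpa and Atp5j 0.0020. All 13 genes of the tricarboxylic acid cycle had an interval, with 22 of 29 values above 0 and a median of 0.07. Over all intervals, 20885 of 39768 values were above 0. Of the 29, 0 had an unadjusted p under 0.05, and 6 were of Ogdh and 4 of Sucla2, so they are not independent. In none of these lists did an interval pass the adjusted threshold, the lowest adjusted p being 0.972.

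The summed share of endothelial markers did not overlap between the groups. These markers took 0.00711 to 0.00821% of counts in CTL and 0.00574 to 0.00642% in H2A.Z dKO over 8 intervals of 5 of 8 genes, with a median log2 fold change of -0.34, while Pecam1, Emcn and Eng had no interval. At an unadjusted p under 0.05, 2 of the 8 (25%) were lower, both at Cdh5, against a background of 2.31% of all intervals, and none passed the adjusted threshold (lowest adjusted p 0.972 in edgeR's quasi-likelihood test). Fibroblast markers had a median log2 fold change of 0.30 over 6 intervals, with 0 under that p. Satellite cell markers had 2 intervals, both of 1 gene, with a median log2 fold change of 0.28 and 0 under that p. Muscle fibre markers took 0.0504 to 0.0661% in CTL and 0.0511 to 0.0676% in H2A.Z dKO over 24 intervals, 0 of them under that p. The part of these shares in the values of the respiratory chain intervals was not tested.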

How the data were processed

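ATAC-seq was measured in 6 libraries of mouse muscle nuclei (3 CTL, 3 H2A.Z dKO, grouped by the genotype label). The deposited table holds raw counts of Tn5-shifted, extended fragment ends per interval, which the authors made after trimming (Trimmomatic), alignment (Bowtie2), duplicate removal (Picard) and MACS2 peak calling on mm9. The intervals are unions of peaks shared by the replicates of each group. Versions are not given in the sources used here. The header of the table lacks some tabs and 1 column name, so the count columns were read by position, in the order in which the header names the 6 libraries. Further columns of that table hold the authors' DESeq2 comparison (mean, log2 fold change, its error, statistic and p-values) and were not used, and 0 columns of per-sample values were left out.

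Counts were fitted with edgeR 4.0.16 (R 4.3.3), glmQLFit with robust dispersion and glmQLFTest, TMM scaling, no filter, group as the only term, two-sided, with Benjamini-Hochberg adjustment over all 39768 intervals. The script was tested on simulated data. The threshold was 0.05 and confidence intervals cover 95%. RPKM is the count relative to the width in kb (end minus start) and to the library's total in intervals. Coordinates are printed as the file gives them, without a stated base. Nothing says which replicates came from separate animals beyond their numbers, so p-values measure the spread between these libraries, which may be technical. Same-numbered libraries did not deviate together, so no pairing was used.

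Members and comparison lists were chosen with earlier results of these data known. Named genes were the highest and lowest best interval (highest mean RPKM) of each complex, the tissue-form pairs and testis forms of complex IV, the Atp5g genes, Sdha to Sdhd, the 3 smallest p-values in each direction, member genes with no interval, and the 5 highest intervals shared with another gene's start, plus Atp5j. An item that this rule picks is not reported here. Promoter windows began at the start used by most coding transcripts. Alternatives were DESeq2 1.42.0, limma 3.58.1 voom, other scalings, a count filter, the replicate block, leaving out each library, other member definitions and a wider promoter window. The interval width plus 36 bp and starts of coding transcripts only were chosen after seeing the data.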

Additional observations from a re-analysis of the deposited data

How the results depend on the processing

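The count of 0 intervals called, among members and in the whole table, was the same under every alternative run (DESeq2 and limma voom, scaling by total counts, by median-of-ratios factors or by loess, a minimum of 20 counts in every library, the replicate block and leaving out each of the 6 libraries). The median log2 fold change of members moved by less than the spread between libraries in all of them and in every member definition, and ran from -0.017 to 0.025 when 1 library was left out. The count of members with an unadjusted p under 0.05 (2) was 1 with the count filter (3.5% of all intervals). It was 0 of 100 without intervals near a start of another gene and 1 of 93 among intervals listed for both groups. Both come from the main fit, where 4.95% of all intervals were under that p. The count was 1 to 5 when a library was left out. It was 5 (3.03%) without the first H2A.Z dKO library, where 7.95% of all intervals were under that p, and 1 (0.606%) without the second CTL library, where 4.21% were. The cause was not tested.

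The levels depended on which intervals were taken. The share of counts (CTL 0.534%, H2A.Z dKO 0.527%) became 0.507 and 0.501% with midpoints within 500 bp, 0.302 and 0.295% without intervals near another gene's start, 0.483 and 0.478% with structural subunits only, 0.332 and 0.323% with 1 interval per gene and 0.423 and 0.413% for intervals listed for both groups, since each takes fewer intervals. The median RPKM (CTL 138, H2A.Z dKO 137) became 129 and 129 without intervals near another gene's start, 161 and 158 with 1 interval per gene, 149 and 147 for intervals listed for both groups and 108 and 107.5 with 36 bp added to the width, an alternative chosen after seeing the data.

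Of 347 alternative log2 fold changes of the 27 named intervals, 313 kept the sign and 34 took the other, with 15 intervals keeping it throughout and none passing the adjusted threshold (lowest adjusted p 0.437 in edgeR's quasi-likelihood test, Ndufv3 without the first H2A.Z dKO library). The other sign was given with DESeq2 0.0041 for Cox6a2, with limma voom 0.0041 for Cox6a2 and -0.0036 for Atp5j, with median-of-ratios factors 0.0012 for Cox6a2, with total counts 0.0010 for Cox6a2, with loess offsets 0.011 for Sdhb, with at least 20 counts in every library 0.0098 for Cox6a2, with the replicate block 0.012 for Cox6a2 and -0.00056 for Atp5j. When 1 library was left out, ranges that crossed 0 were -0.21 to 0.076 for Atp5b, -0.081 to 0.17 for Atp5g2, -0.10 to 0.048 for Atp5j, -0.036 to 0.16 for Cox4i1, -0.16 to 0.19 for Cox6a2, -0.30 to 0.087 for Cox6b1, -0.096 to 0.055 for Cox7a1, -0.019 to 0.052 for Cox7a2, -0.25 to 0.097 for Ndufa9, -0.047 to 0.20 for Sdha, -0.057 to 0.0082 for Sdhb and -0.070 to 0.022 for Uqcrh. Ranges that kept the sign but had an end over 1.5 times above or below the value from all 6 libraries were -0.44 to -0.16 for the 31 bp interval of Atp5g3 (-0.27 from all 6), 0.019 to 0.25 for Atp5l, -0.23 to -0.044 for Cox6a1, -0.16 to -0.070 for Cox8a, -1.32 to -0.60 for Ndufa3, 0.025 to 0.12 for Sdhc, 0.043 to 0.16 for Sdhd, 0.026 to 0.10 for Uqcr10, 0.28 to 0.58 for Uqcrc2 and 0.023 to 0.13 for Uqcrfs1. The cause was not tested. The replicate block was fitted although the numbers do not pair the libraries (correlations of the deviations of same-numbered libraries -0.098, -0.053 and -0.032). With it 0 intervals were called, 2 members had an unadjusted p under 0.05 and the members' median was 0.0046.

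Single members are known only within limits: the median 95% interval reached 0.37 either side on the log2 scale, from 0.19 to 0.72, and intervals narrower than 73 bp (29 of 165) rest on few counts. These intervals rest on the spread between 3 libraries a group, and depth was not varied.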
